A study of Mus musculus with 6 samples.

Results

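The genes described here are the matrix metalloproteinases (MMPs), the ADAMTS proteases, the ADAMTS-like proteins and the TIMP inhibitors of the mouse. They were chosen by symbol alone, as every Mmp, Adamts and Adamtsl gene with a number and Timp1 to Timp4 among the genes that the authors' abundance tables name. The rule found 48 genes, 20 MMPs, 19 ADAMTS proteases, 5 ADAMTS-like genes and 4 TIMPs, of 20672 genes in any count table. Of these 48, 46 were listed in the count tables of all 3 tissues and 45 passed the filter on low counts and were tested. Mmp7 was listed everywhere but too low to test, and Mmp20 and Mmp21 were listed in the fat pad alone. A further 3 genes of the family, Mmp1a, Mmp1b and Mmp10, had no symbol in the abundance tables and fell outside the rule, with at most 3 counts in a fat pad library.

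MMPs and ADAMTS proteases are zinc enzymes that cut the extracellular matrix. MMPs cut fibrillar collagen, gelatin, basement membrane and elastin, and are made as inactive proenzymes that furin-like convertases, plasmin or other MMPs activate. ADAMTS proteases process procollagen, cut proteoglycans such as aggrecan and versican, and act on fibrillin microfibrils, while ADAMTS-like proteins carry similar binding domains but no protease domain. TIMPs bind the active site of these enzymes and block it. In the joint, MMPs and aggrecan-cutting ADAMTS proteases are known for their part in cartilage and tendon breakdown. Their activity is set largely after transcription, so RNA levels are not enzyme activities.

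RNA from female mice, as the series title states, was sequenced in 6 libraries. There were 2 libraries each of the infrapatellar fat pad (a cushion of fat in the front of the knee), the Achilles tendon and the rectus femoris (a fast muscle of the thigh). The series is about letrozole, an aromatase inhibitor, whose name stands in the titles of the fat pad libraries and of no other library. Within a tissue the labels do not separate treatment and control, so letrozole was not tested, and in the fat pad a drug effect and a tissue effect cannot be told apart. Strain, age and dose are not in the labels. The grouping rests on the only label that names the 3 tissues, since the tissue and source fields give the fat pad throughout. Title codes also differ between tissues, so the tissue cannot be told apart from any handling those codes mark. Whether both libraries of a tissue stem from different mice is not stated. Each p-value rests on the spread between the 2 libraries of a tissue, estimated jointly over all 3 tissues, and this spread may be technical.

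The libraries held 83132413 and 106319037 counts in fat pad, 59042675 and 62063826 in tendon, and 56216295 and 58544836 in muscle. Markers bore out the tissue names in part. The 5 adipocyte genes summed to 60558 and 67067 CPM (read counts scaled to the size of each library) in fat pad, 2119 and 257 in tendon, and 213 and 661 in muscle. Most of the fat pad sum was Cfd, at 51721 and 58546 CPM. Lep of this list did not separate fat pad (20.5 and 11.0 CPM) from tendon (65.7 and 6.20). Every other gene of the list was higher in both fat pad libraries than in any tendon or muscle library. The 5 tenocyte genes summed to 74.4 and 55.7 CPM in fat pad, 7654 and 11740.4 in tendon, and 1085 and 691 in muscle. The 5 fast muscle genes summed to 58.1 and 46.9 CPM in fat pad, 6123 and 34723 in tendon, and 154569 and 147288 in muscle, so muscle genes were detected in both tendon libraries. The 5 slow muscle genes summed to 8058 and 4288 CPM in tendon, against 15.02 and 38.8 in muscle. In such bulk samples, fewer cells of a type and less RNA per cell cannot be told apart.

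Summed over each family, TIMP RNA exceeded MMP RNA in every library. The TIMPs summed to 1638 and 1559.9 CPM in fat pad, 1891 and 1693 in tendon, and 602 and 543 in muscle. The MMPs summed to 417 and 387 CPM in fat pad, 643 and 853 in tendon, and 331 and 290.03 in muscle. Fat pad and tendon thus held more TIMP RNA than muscle in both libraries, and the tendon held the most MMP RNA. The ADAMTS proteases summed to 219 and 242 CPM in fat pad, 623 and 506 in tendon, and 263 and 272 in muscle, and the ADAMTS-like genes to 91.4 and 78.6, 200.2 and 142, and 121 and 131 CPM in the same order of tissues. The tendon was highest for both. The order of fat pad and muscle depends on the scaling for the ADAMTS sum, which CPM by total counts put at 238 and 257 in fat pad against 191 and 211 in muscle. The ADAMTS-like sums overlapped under total counts, at 99.5 and 83.2 in fat pad against 87.5 and 101.5 in muscle.

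The ratio of the MMP sum to the TIMP sum was 0.254 and 0.248 in fat pad, 0.340 and 0.504 in tendon, and 0.550 and 0.535 in muscle. It was lowest in the fat pad and did not overlap between the tissues, and no scaling of whole libraries can change it. Per kilobase of exon the ratio was 0.293 and 0.244 in fat pad, 0.484 and 0.663 in tendon, and 0.748 and 0.757 in muscle, the same order. These are ratios of RNA levels over 2 libraries a tissue, described without a test.

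**Figure D1:**
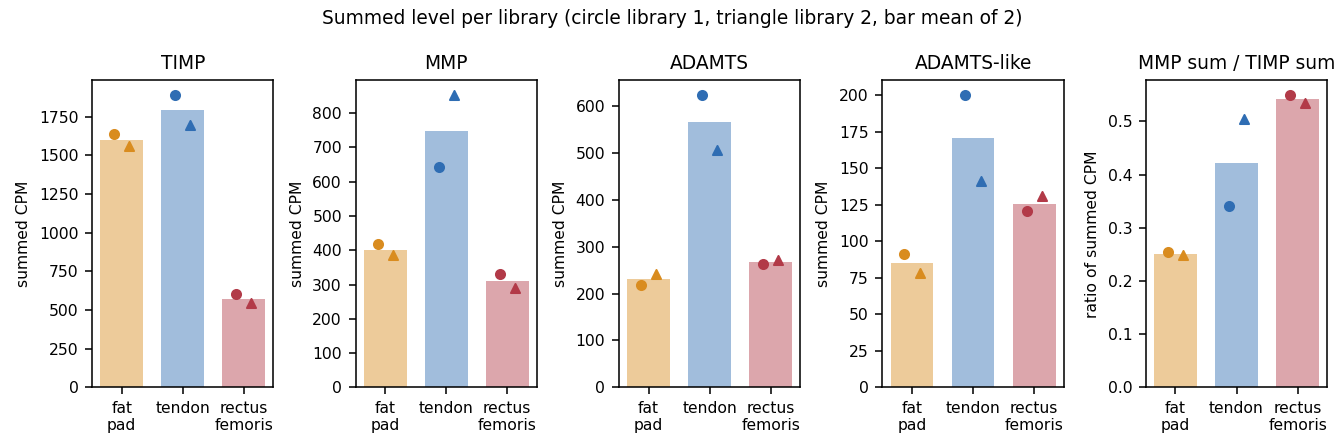
Summed CPM of each family per library, and the ratio of the MMP sum to the TIMP sum, with the fat pad left, the tendon in the middle and the muscle right. Circles are library 1, triangles library 2, and bars the mean of both. The TIMP sums of fat pad and tendon, all at 1559.9 or more, lie above those of muscle, and the fat pad ratios of 0.254 and 0.248 lie below all others.

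Against the rectus femoris, 22 of the 45 tested members differed in the fat pad at an adjusted p under 0.05, 12 higher and 10 lower. That is 48.9% of members, where 59.4% of all 15856 genes tested were called, 29.8% higher and 29.6% lower, so the members were not called more often than genes at large. The direction differed between families. Among 17 tested MMPs, 7 were higher and 1 lower, and 3 of 4 TIMPs were higher and none lower. Among 19 ADAMTS proteases 2 were higher and 6 lower, and of the 5 ADAMTS-like genes none was higher and 3 were lower. The median log2 fold change was 1.32 for MMPs, 1.64 for TIMPs, −0.32 for ADAMTS proteases and −0.95 for ADAMTS-like genes, against 0.14 over all genes. Scaling by total counts moved the median of all genes by 0.51 and put the ADAMTS median at 0.19, on the other side of 0.

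Against the Achilles tendon, 26 of 45 members differed in the fat pad, 6 higher and 20 lower. Over all genes 58.5% were called, 27.2% higher and 31.4% lower, so 44.4% of members were lower where 31.4% of genes were. ADAMTS proteases made up most of the lower calls, with 11 of 19 lower and 1 higher, and 4 of 5 ADAMTS-like genes were lower and none higher. Of the MMPs, 3 were higher and 4 lower, and of the TIMPs 2 were higher and 1 lower. The median over all 45 members was −0.84 on the log2 scale, against −0.01 over all genes.

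Against the rectus femoris, 18 of 45 members differed in the Achilles tendon, 17 higher and 1 lower. The background was 26% of genes, 13.3% higher and 12.7% lower, and 37.8% of members were higher. These were 6 MMPs, 7 ADAMTS proteases, 1 ADAMTS-like gene and 3 TIMPs, and the lower gene was Mmp9. The median of the members was 1.21, against 0.10 over all genes, and scaling by total counts moved the median of all genes by 0.73. This comparison leaned on both muscle libraries. With either left out, edgeR called 0 members (20 without muscle library 1 and 18 without muscle library 2 at an unadjusted p under 0.05), and only 43 and 19 of all genes tested. Every tendon over muscle call below shares this limit.

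**Figure D2:**
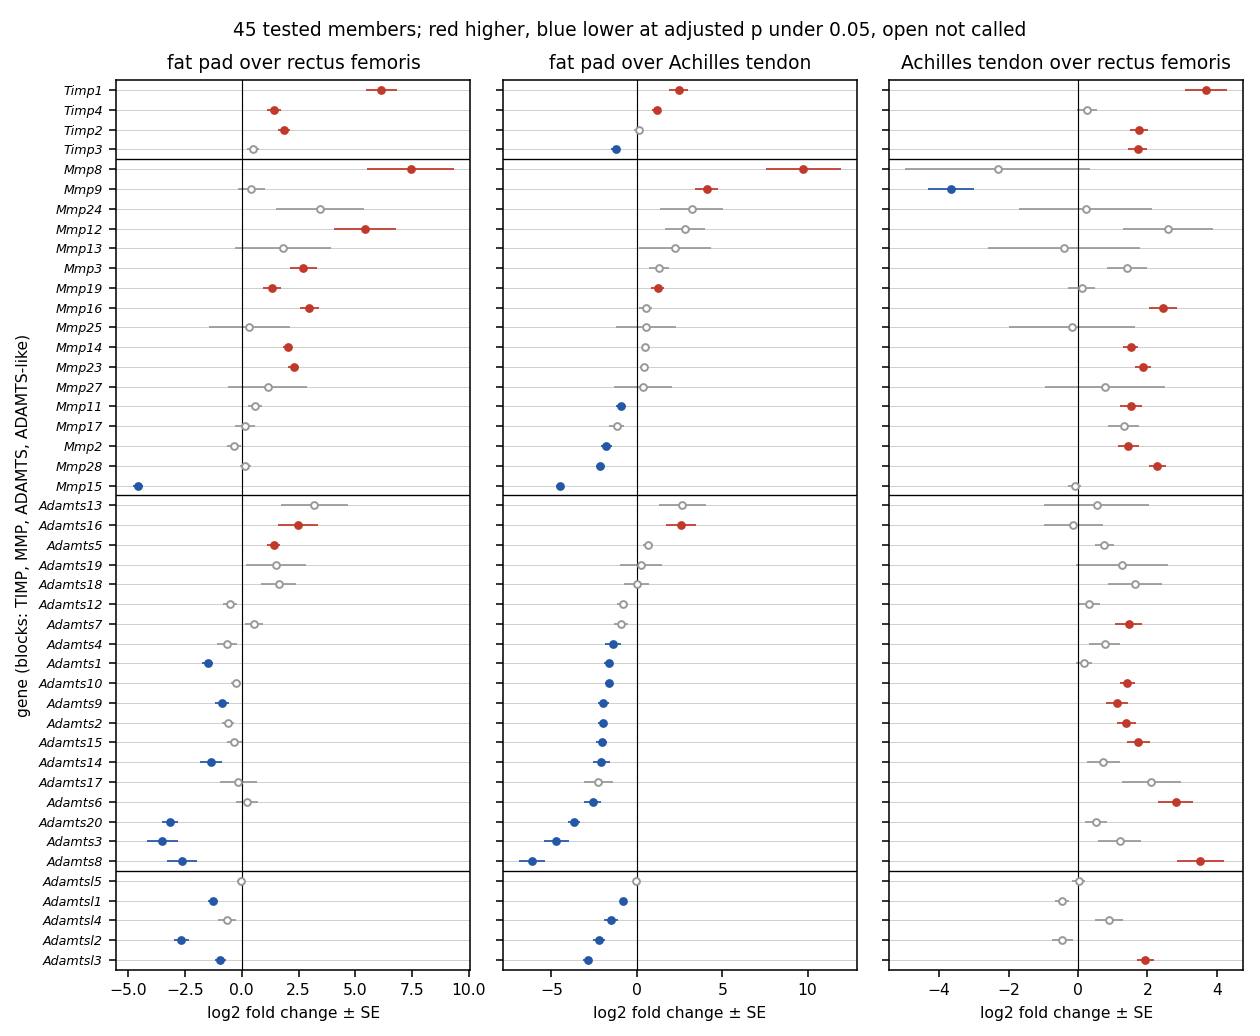
Log2 fold change with its standard error for the 45 tested members in the 3 comparisons, grouped from top to bottom as TIMPs, MMPs, ADAMTS proteases and ADAMTS-like genes. Filled red points are higher and filled blue points lower at an adjusted p under 0.05. In the middle panel, fat pad over tendon, 11 of 19 ADAMTS proteases are blue.

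Among the inhibitors, Timp1, the TIMP most readily induced by cytokines and growth factors, varied most between tissues. Timp1 stood at 69.7 and 96.4 CPM in fat pad, 8.24 and 22.03 in tendon, and 1.69 and 0.661 in muscle, with no overlap between tissues. It was the only member called higher in all 3 comparisons. The log2 fold change was 6.15 ± 0.67 (SE) for fat pad over muscle (adjusted p = 0.000293), 2.46 ± 0.55 for fat pad over tendon (adjusted p = 0.0075) and 3.69 ± 0.61 for tendon over muscle (adjusted p = 0.0112). These calls held without muscle library 1 for fat pad over muscle (log2 6.97) and without tendon library 2, where fat pad over tendon was 3.32 and tendon over muscle 2.83.

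Timp2, which blocks MMPs and also helps the membrane protease MMP14 to activate pro-MMP2, was the most abundant member per kilobase. It stood at 1049 and 1028.5 CPM in fat pad, 948 and 975 in tendon, and 314 and 255 in muscle. Fat pad and tendon lay close together and well above muscle. The fat pad was 3.65-fold higher than muscle (log2 1.87 ± 0.26, adjusted p = 0.00086) and the tendon 3.38-fold higher than muscle (log2 1.76 ± 0.26, adjusted p = 0.0089).

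Timp3, the TIMP that is held in the matrix and also blocks ADAMTS proteases, had its highest level in tendon. Timp3 stood at 357 and 273 CPM in fat pad, 850.4 and 635 in tendon, and 210.2 and 241 in muscle. The tendon stood apart, and the fat pad libraries lay above those of muscle without a call. DESeq2, total-count scaling and upper quartile scaling each called all 4 TIMPs, Timp3 among them, higher in fat pad than in muscle. Timp3 was lower in fat pad than in tendon (log2 −1.24 ± 0.27, adjusted p = 0.0071) and higher in tendon than in muscle (log2 1.72 ± 0.28, adjusted p = 0.0106). Without fat pad library 2 the first of these values was −1.07 with an adjusted p of 0.05. In the mouse annotation 21.3% of the exonic bases of Timp3 are shared with Syn3 on the opposite strand, and the strand setting of the counts is not given in the sources used here.

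Timp4, a TIMP with restricted expression that includes heart, muscle and fat, was highest in the fat pad. It stood at 163 and 162 CPM in fat pad, 83.9 and 61.7 in tendon, and 75.5 and 46.0 in muscle. Tendon and muscle overlapped and the fat pad lay above both. The fat pad was higher than muscle by 1.42 ± 0.29 (log2, adjusted p = 0.00483) and higher than tendon by 1.16 ± 0.28 (adjusted p = 0.0112). On TPM the second of these was 0.46 with an adjusted p of 0.163.

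**Figure D3:**
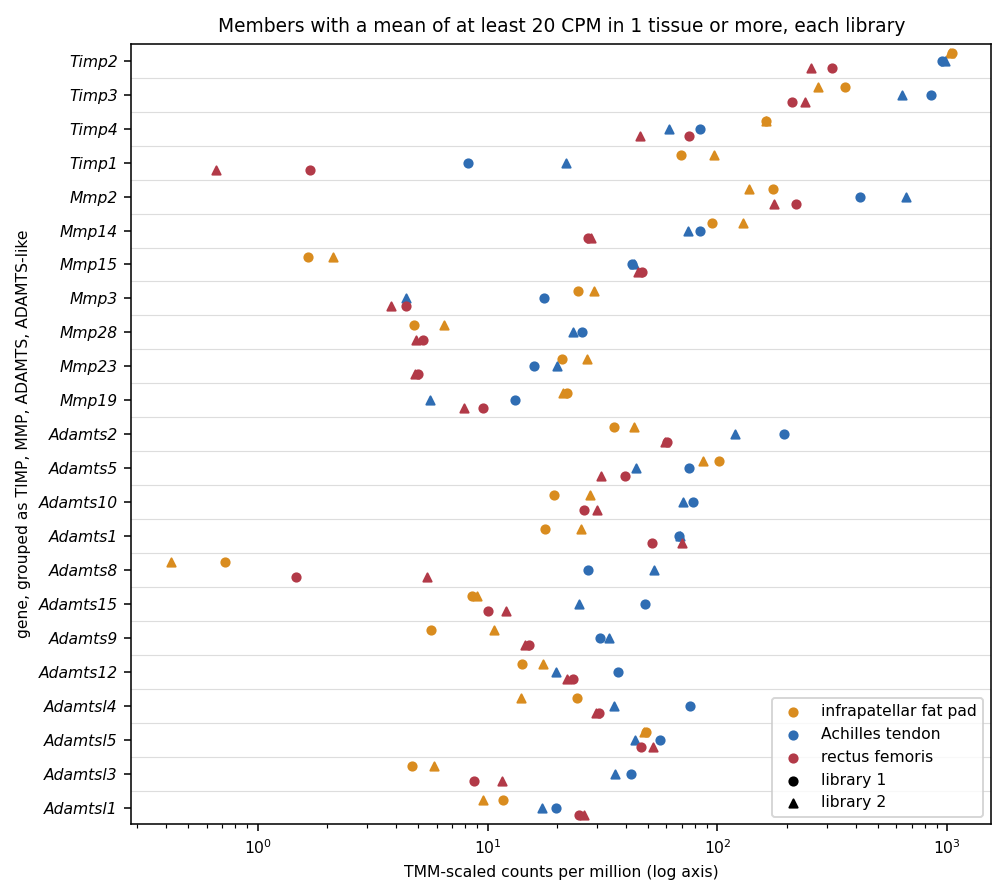
TMM-scaled CPM on a log axis of the 23 members that averaged 20 CPM or more in some tissue, with each library as a point. Colours mark the tissues, circles library 1 and triangles library 2. Timp2 lies furthest right, near 1049 CPM, and the tissues of Timp1, Mmp15 and Adamts8 lie furthest apart.

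Mmp2, gelatinase A, which cuts denatured collagen and basement membrane and is made mainly by fibroblasts, was per kilobase the most abundant protease of the set in every tissue. It stood at 175 and 137 CPM in fat pad, 416 and 662 in tendon, and 219 and 177 in muscle. Mmp2 was lower in fat pad than in tendon (log2 −1.79 ± 0.31, adjusted p = 0.00235) and higher in tendon than in muscle (log2 1.45 ± 0.30, adjusted p = 0.0191). Mmp2 alone made up 42.0% and 35.6% of the MMP sum in fat pad, 64.7% and 77.6% in tendon, and 66.1% and 60.9% in muscle.

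Mmp14, the membrane-type MMP that activates pro-MMP2 at the cell surface, stood at 94.95 and 129.8 CPM in fat pad, 84.3 and 74.4 in tendon, and 27.4 and 28.1 in muscle. Muscle lay below every library of the other tissues, as with its partner Timp2. The fat pad was 4.05-fold higher than muscle (log2 2.02 ± 0.21, adjusted p = 0.000262) and the tendon 2.86-fold higher than muscle (log2 1.52 ± 0.21, adjusted p = 0.00789). On the authors' TPM the first of these gave an adjusted p of 0.055 by limma.

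Mmp15, another membrane-type MMP, had the reverse pattern and was low in the fat pad. It stood at 1.66 and 2.13 CPM in fat pad, 42.6 and 43.4 in tendon, and 46.7 and 45.1 in muscle. The fat pad libraries lay far below all others, while tendon and muscle lay close together on the TMM scale. By total counts the tendon was higher than muscle, at 56.0 and 50.9 CPM against 33.9 and 34.9. The fat pad was 24.1-fold lower than muscle (log2 −4.59 ± 0.22, adjusted p = 3.95e-05) and 22.6-fold lower than tendon (log2 −4.50 ± 0.22, adjusted p = 5.56e-05). Both calls held under every alternative tried. Mmp15 was the only MMP called lower in fat pad than in muscle.

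Mmp16, also of the membrane type, stood at 5.28 and 5.41 CPM in fat pad, 3.83 and 3.59 in tendon, and 0.809 and 0.550 in muscle. Its order of tissues was that of Mmp14 at a lower level. It was higher in fat pad than in muscle (log2 2.98 ± 0.42, adjusted p = 0.00093) and higher in tendon than in muscle (log2 2.45 ± 0.41, adjusted p = 0.0117). On TPM the second of these was 0.66 with an adjusted p of 0.0771. Mmp17, which is anchored to the membrane by a lipid, had 2.41 and 2.28 CPM in fat pad, 6.70 and 3.90 in tendon, and 1.72 and 2.53 in muscle, and passed no test.

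Mmp23, a short MMP without the usual haemopexin domain, stood at 21.1 and 27.0 CPM in fat pad, 15.9 and 20.04 in tendon, and 4.97 and 4.84 in muscle. Muscle was again the low tissue, with the fat pad higher by 2.29 ± 0.24 (log2, adjusted p = 0.000252) and the tendon by 1.87 ± 0.24 (adjusted p = 0.00655). Mmp28, known as epilysin, was highest in the tendon libraries, at 4.77 and 6.45 CPM in fat pad, 25.8 and 23.6 in tendon, and 5.24 and 4.87 in muscle. Fat pad and muscle overlapped, and the tendon was 4.40-fold above the fat pad (fat pad over tendon log2 −2.14 ± 0.25, adjusted p = 0.000429) and 4.89-fold above muscle (log2 2.29 ± 0.25, adjusted p = 0.00526). Mmp11, which furin activates inside the cell, stood at 5.19 and 7.28 CPM in fat pad, 13.2 and 10.8 in tendon, and 3.75 and 4.58 in muscle. It was higher in tendon than in muscle (log2 1.53 ± 0.31, adjusted p = 0.0174) and lower in fat pad than in tendon (log2 −0.94 ± 0.30, adjusted p = 0.0309). The second call ended without any 1 of fat pad library 1, tendon library 1 or either muscle library (log2 between −0.95 and −0.65). The first ended without tendon library 1 (log2 1.36). The second also ended under upper quartile scaling (adjusted p = 0.0681) and in an edgeR fit of only the fat pad and tendon libraries (adjusted p = 0.0604).

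Mmp19, an MMP known from synovium and blood vessels, stood at 22.2 and 21.2 CPM in fat pad, 13.1 and 5.63 in tendon, and 9.53 and 7.86 in muscle. The fat pad lay above the other tissues, which overlapped. It was higher in fat pad than in muscle (log2 1.32 ± 0.39, adjusted p = 0.0242) and than in tendon (log2 1.21 ± 0.39, adjusted p = 0.0325). The first call ended without any 1 of the fat pad or muscle libraries (adjusted p between 0.0707 and 0.122), and the second without any 1 of the fat pad libraries, the muscle libraries or tendon library 2 (adjusted p between 0.0518 and 0.0941, log2 0.72 without tendon library 2). Genes on the opposite strand, among them Tmem198b, share 28.3% of the exonic bases of Mmp19. Without tendon library 1 the value against tendon was 1.99. That call also ended on TPM, where the value was 0.10 (adjusted p = 0.753), and under total-count scaling, at 0.97 (adjusted p = 0.09).

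Mmp9, gelatinase B, which neutrophils, macrophages and osteoclasts make, stood at 17.3 and 4.93 CPM in fat pad, 0.747 and 0.563 in tendon, and 6.05 and 10.6 in muscle. By counts the tendon was the low tissue, below every other library. The fat pad was 16.9-fold higher than tendon (log2 4.08 ± 0.68, adjusted p = 0.00207), and Mmp9 was 12.7-fold lower in tendon than in muscle (log2 −3.66 ± 0.67, adjusted p = 0.0140). Without fat pad library 1 the fat pad over tendon value was 2.97, and without fat pad library 2 it was 4.71, both still called. The authors' TPM gave both directions the other way round. On TPM, limma gave −1.65 for fat pad over tendon (adjusted p = 0.438) and 0.74 for tendon over muscle (adjusted p = 0.762).

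A run of 10 neighbouring MMP genes lies on mouse chromosome 9, and 7 of the 48 members belong to it. In order they are Mmp13, Mmp12, Mmp3, Mmp8, Mmp27, Mmp20 and Mmp7, with Mmp1b, Mmp1a and Mmp10 between them. All 7 had their highest mean in the fat pad, as did 15 of all 20 MMPs. Mmp20 was listed in no other tissue, and most of the 7 were near the limit of detection outside the fat pad. Several MMP promoters are known to be switched by AP-1, a dimer of Fos and Jun proteins, near a TATA box. The promoter windows of Mmp3 and Mmp12, the members of the run that hold both motifs and were called higher in fat pad, are shown with that of Mmp8, which holds neither, and of Mmp15, the membrane-type MMP low in the fat pad. Each covers 250 bases before the start of the gene to 50 after it on its own strand, from RefSeq on GRCm38.p6, with capitals marking TGANTCA (AP-1, either strand), TATAAA (gene strand) or GGGCGG (GC box, either strand). The positions are chr9:7445572-7445871 for Mmp3, chr9:7347124-7347423 for Mmp12, chr9:7558179-7558478 for Mmp8 and chr8:95352046-95352345 for Mmp15, all on the plus strand.
Mmp3: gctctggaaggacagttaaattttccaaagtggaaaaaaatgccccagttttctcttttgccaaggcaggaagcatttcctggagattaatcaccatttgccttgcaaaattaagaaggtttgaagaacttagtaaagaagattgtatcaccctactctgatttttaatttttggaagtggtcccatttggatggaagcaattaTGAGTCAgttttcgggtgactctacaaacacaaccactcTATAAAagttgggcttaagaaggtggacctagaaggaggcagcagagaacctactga
Mmp12: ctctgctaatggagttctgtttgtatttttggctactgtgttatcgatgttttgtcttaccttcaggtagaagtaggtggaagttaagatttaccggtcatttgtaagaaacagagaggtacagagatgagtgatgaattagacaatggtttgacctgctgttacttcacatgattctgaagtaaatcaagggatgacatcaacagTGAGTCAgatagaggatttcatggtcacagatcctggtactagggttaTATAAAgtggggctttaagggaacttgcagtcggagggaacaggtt
Mmp8: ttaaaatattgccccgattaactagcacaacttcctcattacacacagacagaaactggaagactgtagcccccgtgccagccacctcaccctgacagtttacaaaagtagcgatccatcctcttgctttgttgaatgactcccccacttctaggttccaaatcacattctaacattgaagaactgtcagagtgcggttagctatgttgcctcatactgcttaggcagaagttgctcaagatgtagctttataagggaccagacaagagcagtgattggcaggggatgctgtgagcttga
Mmp15: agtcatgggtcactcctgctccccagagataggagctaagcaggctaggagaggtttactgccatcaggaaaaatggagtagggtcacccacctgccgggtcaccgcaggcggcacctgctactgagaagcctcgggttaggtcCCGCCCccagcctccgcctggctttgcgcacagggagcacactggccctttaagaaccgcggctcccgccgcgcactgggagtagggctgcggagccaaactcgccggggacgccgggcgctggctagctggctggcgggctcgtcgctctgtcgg

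The AP-1 letters begin 46 bases before the start in Mmp3 and 44 before in the Mmp12 window shown, and the other Mmp12 window held no motif. TATAAA begins 7 bases before the annotated start in Mmp3 and 4 after it in Mmp12. Of the 48 members, 33 had a promoter window, 36 windows in all. The AP-1 letters were in 5 of them (13.9% of member windows, against 7.81% of 32851 windows), those of Mmp3, Mmp7, Mmp12, Mmp13 and Mmp20, all of the chromosome 9 run. All of these hold TATAAA as well, though Mmp7 and Mmp20 were not tested and Mmp13 was not called. TATAAA was in windows of 8 members (22.2% of member windows, against 8.32%) and the GC box in those of 22 members (61.1%, against 35.7%), Mmp14, Mmp15, Timp1, Timp2 and Timp3 among them. A match is a description of letters, and the absence of one says nothing about binding.

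Mmp3, stromelysin, which cuts proteoglycans and activates other MMPs, stood at 24.7 and 28.9 CPM in fat pad, 17.6 and 4.40 in tendon, and 4.41 and 3.79 in muscle. It was 6.55-fold higher in fat pad than in muscle (log2 2.71 ± 0.60, adjusted p = 0.00735), while the tendon libraries spanned the gap. The synovial lining, which is known to make stromelysin, moved with it: its 5 markers summed to 15718 and 17981 CPM in fat pad, 1384 and 815 in tendon, and 477 and 504 in muscle, none of the 5 at 0 in any library, and their part in this result was not tested. Most of that sum was Prg4, at 13458 and 16761 CPM in fat pad, and Clic5 of the same list ran the other way, at 210.4 and 113 CPM in fat pad against 362 and 384 in muscle.

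Mmp12, macrophage elastase, stood at 1.79 and 11.1 CPM in fat pad, 1.64 and 0.192 in tendon, and 0.098 and 0.198 in muscle. It was higher in fat pad than in muscle (log2 5.42 ± 1.38, adjusted p = 0.0132). Without fat pad library 2 the value was 3.57 (adjusted p = 0.0799), without muscle library 1 it was 5.01 (adjusted p = 0.0765) and without muscle library 2 it was 6.02 (adjusted p = 0.0588). Without fat pad library 1 it was 6.24, still called. On TPM by limma the Mmp12 value for fat pad over muscle was 1.11 (adjusted p = 0.0602). The 5 macrophage markers summed to 881 and 1426 CPM in fat pad, 164 and 110.2 in tendon, and 167 and 160 in muscle, none at 0, and their part was not tested. Mrc1 of that list ran the other way, at 35.8 and 52.4 CPM in fat pad against 64.5 and 67.5 in muscle.

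Mmp8, the collagenase of neutrophils, rested on a single library. It had 3253 and 138 counts in fat pad (36.0 and 1.23 CPM), 0 and 3 in tendon, and 9 and 0 in muscle. It was higher in fat pad than in muscle (log2 7.43 ± 1.93, adjusted p = 0.0143) and than in tendon (log2 9.74 ± 2.20, adjusted p = 0.00795), values that depend on the prior count where libraries hold 0. Without fat pad library 1 they were 3.51 (adjusted p = 0.200) and 5.86 (adjusted p = 0.0788), and without muscle library 2 the first was 6.38 (adjusted p = 0.0708). Leaving out any 1 of fat pad library 2, muscle library 1 or the tendon libraries kept the calls, with the first at 8.37 to 13.53 and the second at 8.80 to 13.41 where they moved. The 6 neutrophil markers summed to 1755 and 239 CPM in fat pad, 0.812 and 1.02 in tendon, and 6.30 and 5.33 in muscle, with S100a9, Ngp and Ltf at 0 in tendon library 1, Ltf at 0 in muscle library 1 and Elane at 0 in muscle library 2. Their part was not tested.

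The other members of the run were low, none above 1 CPM in any library, where 3 counts equal 0.0267 to 0.0735 CPM on the TMM scale of these values. Mmp13, the main collagenase of the mouse, had 65 and 7 counts in fat pad, 0 and 12 in tendon, and 9 and 0 in muscle. Mmp27 had 69 and 56 counts in fat pad, 76 and 0 in tendon, and 18 and 6 in muscle. Neither passed a test. Mmp7, matrilysin, had 25 and 0 counts in fat pad, and Mmp20, the protease of tooth enamel, 6 and 0. Among the members off the run, Mmp24, Mmp25 and Mmp21 stayed under 1.14 CPM in every library.

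**Figure D4:**
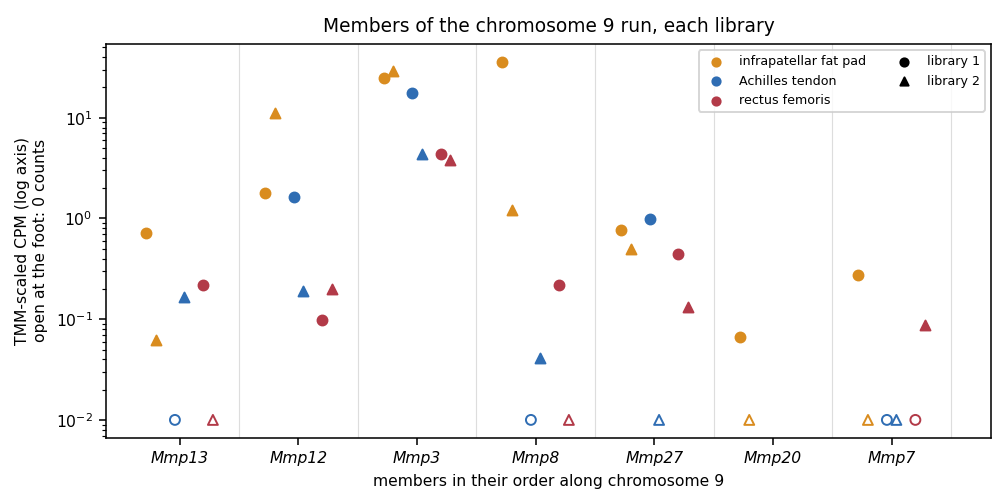
TMM-scaled CPM on a log axis of the 7 members of the chromosome 9 run, in their order along the chromosome, with open symbols at the foot for 0 counts. Mmp8 ranges between 36.0 and 1.23 CPM within the fat pad, and Mmp20 was listed for the fat pad alone.

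Adamts2, Adamts3 and Adamts14 encode the enzymes that remove the N-propeptide of fibrillar procollagens, and all of them were lower in fat pad than in tendon. Adamts2, the main enzyme for type I procollagen, stood at 35.5 and 43.3 CPM in fat pad, 194 and 119 in tendon, and 60.03 and 59.1 in muscle. The tissues did not overlap. Adamts2 was 3.97-fold lower in fat pad than in tendon (log2 −1.99 ± 0.27, adjusted p = 0.00083) and 2.63-fold higher in tendon than in muscle (log2 1.39 ± 0.27, adjusted p = 0.0152). Adamts3, which also takes part in the activation of the lymphatic growth factor VEGF-C, stood at 0.298 and 0.462 CPM in fat pad, 5.65 and 14.5 in tendon, and 6.25 and 2.44 in muscle. It was lower in fat pad than in tendon (log2 −4.72 ± 0.72, adjusted p = 0.00137) and than in muscle (log2 −3.50 ± 0.68, adjusted p = 0.00421). Both calls held, at −3.89 without tendon library 2 and at −2.68 without muscle library 1. Adamts14 stood at 2.61 and 1.27 CPM in fat pad, 10.4 and 6.01 in tendon, and 5.51 and 4.40 in muscle. It was lower in fat pad than in tendon (log2 −2.08 ± 0.48, adjusted p = 0.00883) and than in muscle (log2 −1.35 ± 0.47, adjusted p = 0.0435), the second call ending under total-count and upper quartile scaling (adjusted p 0.188 and 0.0908), on TPM (0.161) and without any 1 of fat pad library 2 or the muscle libraries (between 0.0906 and 0.163).

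The proteases that cut aggrecan and versican went different ways. Adamts5, the main aggrecanase of mouse cartilage, was the only one of them called higher in the fat pad, at 101 and 86.7 CPM in fat pad, 75.0 and 44.3 in tendon, and 39.4 and 31.2 in muscle. The tissues did not overlap, and the fat pad was 2.66-fold above muscle (log2 1.41 ± 0.28, adjusted p = 0.00471). On TPM this was 0.68 with an adjusted p of 0.113. Adamts1, its neighbour on chromosome 16, had the opposite direction, at 17.8 and 25.5 CPM in fat pad, 68.4 and 68.7 in tendon, and 51.7 and 70.4 in muscle. Tendon and muscle overlapped, and the fat pad was lower than muscle (log2 −1.49 ± 0.24, adjusted p = 0.0018) and lower than tendon (log2 −1.66 ± 0.24, adjusted p = 0.00117).

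Adamts8 spanned the widest range of the ADAMTS proteases. It stood at 0.718 and 0.418 CPM in fat pad, 27.4 and 53.2 in tendon, and 1.47 and 5.46 in muscle, with no overlap. Adamts8 was 71.1-fold lower in fat pad than in tendon (log2 −6.15 ± 0.76, adjusted p = 0.000549), 11.6-fold higher in tendon than in muscle (log2 3.53 ± 0.67, adjusted p = 0.0147) and lower in fat pad than in muscle (log2 −2.62 ± 0.67, adjusted p = 0.0134). The last call ended without fat pad library 2 (log2 −2.28, adjusted p = 0.0914), without muscle library 2 (log2 −1.38, adjusted p = 0.0826) and on TPM (log2 −0.58, adjusted p = 0.189). Its neighbour on chromosome 9, Adamts15, was also highest in the tendon libraries, at 8.55 and 9.003 CPM in fat pad, 48.4 and 25.1 in tendon, and 9.997 and 12.0 in muscle. Adamts15 was lower in fat pad than in tendon (log2 −2.06 ± 0.33, adjusted p = 0.00174) and higher in tendon than in muscle (log2 1.74 ± 0.33, adjusted p = 0.0149). The first of these was −1.47 without tendon library 1, still called. The Adamts8 value for fat pad over muscle was −3.27 without muscle library 1. Opposite-strand genes share 10.6% of the exonic bases of Adamts8.

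Adamts9, a versican-cutting protease of vessels and fascia, stood at 5.66 and 10.7 CPM in fat pad, 31.0 and 33.7 in tendon, and 15.1 and 14.6 in muscle. The tissues lay in separate ranges. It was lower in fat pad than in tendon (log2 −1.98 ± 0.32, adjusted p = 0.00172), and higher in tendon than in muscle (log2 1.13 ± 0.31, adjusted p = 0.0395). Its lower level in fat pad than in muscle (log2 −0.85 ± 0.31, adjusted p = 0.0483) ended under 11 of 15 alternatives, among them DESeq2 (adjusted p = 0.052), total-count scaling (log2 −0.34, adjusted p = 0.346) and the removal of any 1 library other than fat pad library 2 (adjusted p between 0.0539 and 0.144). The tendon over muscle call ended on TPM (adjusted p = 0.122) and without either tendon library (adjusted p 0.0895 and 0.0777). Its close relative Adamts20, at 1.45 and 1.07 CPM in fat pad, 12.2 and 20.1 in tendon, and 12.3 and 10.3 in muscle, was lower in fat pad than in muscle (log2 −3.16 ± 0.35, adjusted p = 0.000333) and than in tendon (log2 −3.69 ± 0.36, adjusted p = 0.00022). Adamts4, an aggrecanase induced by interleukins, stood at 1.76 and 4.10 CPM in fat pad, 8.86 and 6.69 in tendon, and 4.46 and 4.67 in muscle. Adamts4 was lower in fat pad than in tendon (log2 −1.41 ± 0.46, adjusted p = 0.0336). That call ended without any 1 of fat pad library 1, tendon library 1 or the muscle libraries (log2 between −1.42 and −0.86). Without fat pad library 2 the value was −2.15. The call also ended under upper quartile scaling (adjusted p = 0.0567) and in an edgeR fit of only the fat pad and tendon libraries (adjusted p = 0.0713).

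Adamts6 and Adamts10, a related pair that acts on fibrillin microfibrils and cell adhesion, were both highest in tendon. Adamts10 stood at 19.4 and 28.0 CPM in fat pad, 78.5 and 71.1 in tendon, and 26.2 and 29.8 in muscle. Fat pad and muscle overlapped. It was lower in fat pad than in tendon (log2 −1.66 ± 0.22, adjusted p = 0.000801) and higher in tendon than in muscle (log2 1.42 ± 0.22, adjusted p = 0.0101). Adamts6 stood at 1.37 and 3.81 CPM in fat pad, 15.9 and 15.2 in tendon, and 2.43 and 1.98 in muscle, and was lower in fat pad than in tendon (log2 −2.58 ± 0.50, adjusted p = 0.0039) and 7.08-fold higher in tendon than in muscle (log2 2.82 ± 0.51, adjusted p = 0.0134). The first Adamts6 value was −1.97 without fat pad library 1 and −3.52 without fat pad library 2, and both passed the test.

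Adamts7 and Adamts12 cut the cartilage and tendon protein COMP. Adamts12 stood at 14.2 and 17.5 CPM in fat pad, 37.1 and 19.7 in tendon, and 23.5 and 22.1 in muscle, and passed no test. Adamts7 stood at 3.13 and 3.72 CPM in fat pad, 7.11 and 5.87 in tendon, and 2.96 and 1.76 in muscle. Adamts7 was higher in tendon than in muscle (log2 1.46 ± 0.40, adjusted p = 0.0391), a call that ended without either tendon library (adjusted p 0.135 and 0.0503) and on TPM (adjusted p = 0.0548). Adamts16 was low throughout and highest in the fat pad libraries, at 3.46 and 5.01 CPM in fat pad, 1.15 and 0.234 in tendon, and 1.13 and 0.396 in muscle. It was higher in fat pad than in muscle (log2 2.48 ± 0.88, adjusted p = 0.0457) and than in tendon (log2 2.61 ± 0.88, adjusted p = 0.0379). The first call ended without any 1 of the fat pad or muscle libraries (adjusted p between 0.062 and 0.198), the second without either fat pad library or tendon library 2 (adjusted p between 0.0623 and 0.134), while without tendon library 1 the second value was 4.22. Both Adamts16 calls ended on TPM by limma, at log2 0.42 against muscle (adjusted p = 0.138) and 0.50 against tendon (adjusted p = 0.0782). The call against tendon also ended under total-count scaling (log2 2.35, adjusted p = 0.0588). Adamts13, which cuts von Willebrand factor in blood, Adamts17, Adamts18 and Adamts19 stayed under 1.5 CPM in every library and passed no test.

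The ADAMTS-like proteins, which bind matrix and carry no protease domain, included a member called in no comparison and others that differed between tissues. Adamtsl5 hardly varied on the TMM scale, at 48.8 and 47.7 CPM in fat pad, 56.1 and 43.9 in tendon, and 46.4 and 52.4 in muscle. All tissues overlapped on that scale. By total counts muscle was lower, at 33.7 and 40.7 CPM, against 53.1 and 50.5 in fat pad and 73.8 and 51.5 in tendon. The authors' TPM gave 13.7 and 13.8 in fat pad, 46.7 and 44.5 in tendon, and 22.5 and 13.7 in muscle. Adamtsl3 stood at 4.69 and 5.83 CPM in fat pad, 42.1 and 35.7 in tendon, and 8.70 and 11.6 in muscle. Adamtsl3 was 7.38-fold lower in fat pad than in tendon (log2 −2.88 ± 0.25, adjusted p = 0.000157) and higher in tendon than in muscle (log2 1.94 ± 0.25, adjusted p = 0.00655, but 0.0825 on TPM). It was also lower in fat pad than in muscle (log2 −0.95 ± 0.24, adjusted p = 0.0129), a call that ended without fat pad library 1 (adjusted p = 0.0649), without muscle library 2 (0.0947) and under total-count scaling (0.187).

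On the TMM scale Adamtsl1 and Adamtsl2 had their highest mean in muscle, while by total counts the tendon mean was higher for both. Adamtsl1 stood at 11.7 and 9.58 CPM in fat pad, 19.7 and 17.2 in tendon, and 24.9 and 26.2 in muscle. Adamtsl2, which binds fibrillin and latent TGF-beta binding protein, stood at 1.71 and 1.59 CPM in fat pad, 6.11 and 9.35 in tendon, and 9.95 and 11.1 in muscle. Both were lower in fat pad than in muscle, Adamtsl1 at −1.26 ± 0.21 (log2, adjusted p = 0.00188) and Adamtsl2 at −2.67 ± 0.33 (adjusted p = 0.000529). Both were also lower in fat pad than in tendon, Adamtsl1 at −0.79 ± 0.21 (adjusted p = 0.0139) and Adamtsl2 at −2.22 ± 0.33 (adjusted p = 0.00116). The Adamtsl1 call against tendon ended without fat pad library 2 (adjusted p = 0.0516) and without tendon library 1 (0.0756). Adamtsl4, a fibrillin-binding protein known from the lens, stood at 24.5 and 13.9 CPM in fat pad, 76.1 and 35.4 in tendon, and 30.5 and 29.6 in muscle. It was lower in fat pad than in tendon (log2 −1.54 ± 0.41, adjusted p = 0.0155), but not without fat pad library 2 (adjusted p = 0.0905) or tendon library 1 (0.0777).

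Genes that control MMPs were not members but share the pathway. The counts in this and the next paragraphs stand against 59.4% of all genes called for fat pad over muscle (29.8% higher, 29.6% lower), 58.5% for fat pad over tendon (27.2% higher, 31.4% lower) and 26% for tendon over muscle (13.3% higher, 12.7% lower). Of 19 tested regulators, 6 were higher and 5 lower in fat pad than in muscle, 6 higher and 8 lower in fat pad than in tendon, and 8 higher and 1 lower in tendon than in muscle. For fat pad over muscle that is 11 of 19, no more than the share of all genes. Reck, a membrane-anchored MMP inhibitor, stood at 7.90 and 11.1 CPM in fat pad, 70.1 and 49.0 in tendon, and 19.5 and 17.1 in muscle, so it was highest in the tendon, like Timp3. Its log2 fold change was −2.65 for fat pad over tendon (adjusted p = 0.000263). Plau, urokinase, which makes the plasmin that activates pro-MMPs, was almost missing from the fat pad, at 0.553 and 1.03 CPM in fat pad, 30.5 and 29.2 in tendon, and 40.2 and 45.6 in muscle (fat pad over muscle log2 −5.75, adjusted p = 5.06e-05). Its receptor gene Plaur went the other way, at 27.7 and 25.4 CPM in fat pad, 6.003 and 3.13 in tendon, and 1.00 and 2.11 in muscle (fat pad over muscle log2 4.09, adjusted p = 0.000425).

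The convertases that activate membrane-type MMPs also split. Furin stood at 17.7 and 28.9 CPM in fat pad, 83.8 and 85.3 in tendon, and 79.2 and 82.2 in muscle, and was lower in fat pad than in muscle (log2 −1.79, adjusted p = 0.000939). Pcsk6, which makes a related convertase, stood at 431 and 352 CPM in fat pad, 81.5 and 61.3 in tendon, and 56.0 and 54.7 in muscle, and was higher in fat pad than in muscle (log2 2.82, adjusted p = 0.000118). Spock2, a proteoglycan known for its part in MMP2 activation, ran with the tendon, at 0.763 and 0.693 CPM in fat pad, 75.3 and 109 in tendon, and 19.4 and 18.2 in muscle (fat pad over tendon log2 −6.98, adjusted p = 5.56e-05).

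The ADAM proteases are membrane-bound relatives of the ADAMTS family. Of 11 tested, 3 were higher and 2 lower in fat pad than in muscle, none was higher and 4 were lower in fat pad than in tendon, and 5 were higher and none lower in tendon than in muscle. Both fat pad counts are below the 59.4% and 58.5% of all genes. Adam17, the sheddase that releases TNF, stood at 55.5 and 50.5 CPM in fat pad, 48.7 and 44.7 in tendon, and 40.5 and 49.3 in muscle, and passed no test. Of 7 tested astacin proteases and procollagen processing genes, 3 were higher and 1 lower in fat pad than in muscle, 1 higher and 2 lower in fat pad than in tendon, and 4 higher and none lower in tendon than in muscle. Bmp1, which removes the C-propeptide of procollagen, stood at 42.3 and 43.6 CPM in fat pad, 134 and 123 in tendon, and 59.3 and 58.7 in muscle (fat pad over tendon log2 −1.58, adjusted p = 0.000296), the same order of tissues as Adamts2, which removes the other propeptide.

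Of 22 tested substrates, 1 was higher and 16 lower in fat pad than in tendon, where 27.2% and 31.4% of all genes were. In tendon over muscle 13 were higher and none lower, where 13.3% and 12.7% of genes were, and in fat pad over muscle 7 were higher and 9 lower, where 29.8% and 29.6% of genes were. Their median log2 fold change was −2.49 for fat pad over tendon, against −0.01 over all genes. Col1a1, a chain of type I collagen, stood at 469 and 280.4 CPM in fat pad, 9642 and 6219 in tendon, and 998 and 721 in muscle. Lum, lumican, was the substrate higher in fat pad than in tendon, at 455 and 449 CPM in fat pad and 126 and 69.1 in tendon (log2 2.22, adjusted p = 0.000993).

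Of 16 tested inducers and transcription factors of MMP genes, 5 were higher and 6 lower in fat pad than in muscle, 2 higher and 7 lower in fat pad than in tendon, and 6 higher and none lower in tendon than in muscle, where 59.4%, 58.5% and 26% of all genes were called. The parts of AP-1 did not move together. Fosb stood at 0.807 and 0.204 CPM in fat pad, 3.90 and 12.4 in tendon, and 35.4 and 16.1 in muscle (fat pad over muscle log2 −5.68, adjusted p = 0.00167). Junb stood at 63.5 and 49.1 CPM in fat pad, 19.1 and 31.1 in tendon, and 22.9 and 19.8 in muscle (fat pad over muscle log2 1.4, adjusted p = 0.00433). Tgfb1, which represses several MMP genes and induces Timp1, was low in the fat pad at 1.35 and 1.80 CPM, against 37.9 and 35.5 in tendon and 10.6 and 10.9 in muscle (fat pad over tendon log2 −4.54, adjusted p = 5.56e-05).

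Levels of different genes were compared per kilobase of exon. On that scale Timp2 ranked 1 among the members in all 3 tissues. Mmp2 ranked 3 in fat pad and 2 in tendon and muscle. Timp1 ranked 2 in fat pad, 4 in tendon and 20 in muscle. Timp3 ranked 4 in fat pad and 3 in tendon and muscle. The ranks correlated with those of the authors' TPM with a Spearman rho of 0.978 in fat pad over 48 genes, 0.79 in tendon over 45 and 0.965 in muscle over 41, a description across genes within the same tissues.

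The pair of libraries of a tissue was compared without a test, since labels give no condition that separates them. Ratios are library 1 over library 2, the direction of the authors' deposited tables, for members whose higher library held 20 counts or more, and intervals cover counting error only. In the fat pad 7 of 47 members were at least 2-fold higher in library 1 and 3 at least 2-fold lower, where 11.5% and 8.01% of all genes were. Mmp8 had a log2 ratio of 4.87 (95% exact interval 4.63 to 5.13), with counts in both libraries. Mmp13 was 3.53 higher on the log2 scale and Mmp9 1.81 higher. Mmp25, an MMP of neutrophils, had 81 counts in library 1 and 0 in library 2, at least 33.6-fold higher against a floor of 3 counts, and Mmp7 had 25 and 0, at least 10.4-fold higher. Mmp12, of macrophages, went the other way at −2.64. The neutrophil sums of 1755 and 239 CPM and the macrophage sums of 881 and 1426 CPM, given above, moved in the same directions as Mmp8 and Mmp12. Other lists moved too. The lymphocyte genes summed to 61.5 and 14.3 CPM and the osteoblast genes to 172 and 70.6, though Cd3e and Sp7 of these lists went the other way. The osteoclast genes summed to 957 and 1059 CPM. The part of these cell types was not tested.

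In the tendon 7 of 41 members were at least 2-fold higher in library 1 and 2 lower, where 9.8% and 4.97% of genes were. Mmp27 had 76 counts in library 1 and 0 in library 2, at least 23.7-fold higher. Mmp12 was at 3.09, Mmp3 at 2.00 and Mmp19 at 1.22 on the log2 scale, and Timp1 was at −1.42 and Adamts3 at −1.36. The adipocyte sums of 2119 and 257 CPM and the fast muscle sums of 6123 and 34723 CPM also differed between these libraries, and their part was not tested. In the muscle 3 of 35 members were at least 2-fold higher in library 1 and 1 lower, where 2.69% and 3.29% of genes were. These were Adamts16 at 1.51, Timp1 at 1.36 (69 and 30 counts), Adamts3 at 1.35, and Adamts8 at −1.89.

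**Figure D5:**
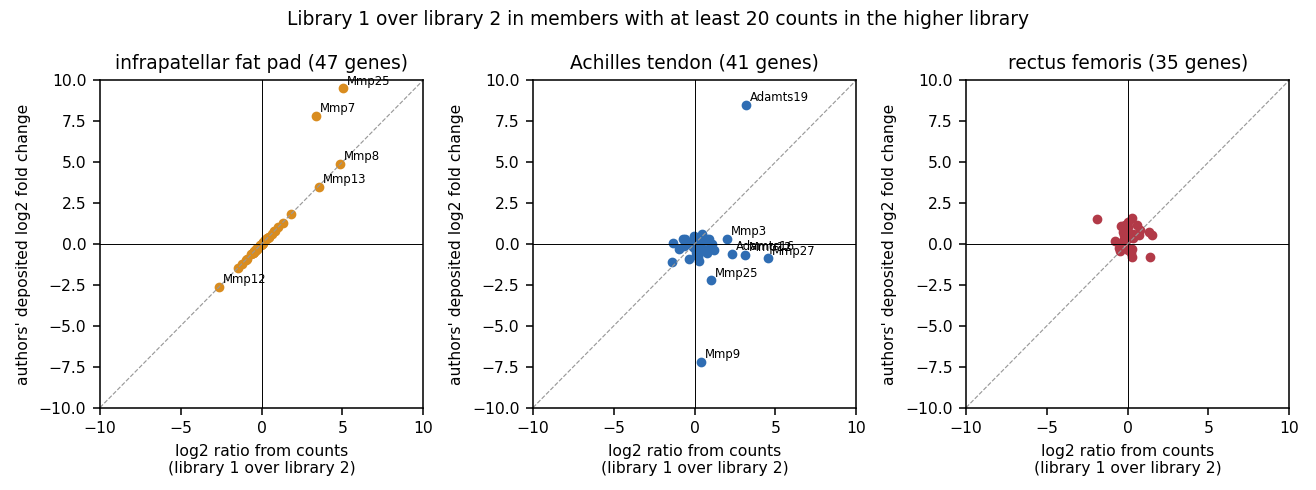
Log2 ratio of library 1 over library 2 from the counts on the horizontal axis, against the log2 fold change of the authors' deposited tables on the vertical axis, for members whose higher library held 20 counts or more; libraries below 3 counts are set to 3. Fat pad points lie on the diagonal apart from Mmp25 and Mmp7, whose second library had 0 counts, while tendon and muscle points do not follow it.

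The deposited tables disagree with each other outside the fat pad. Across genes with 5 TPM or more in at least 1 library, the library 1 over library 2 ratios from TPM were set against those from counts. These ratios correlated at r = 0.95 in the fat pad, −0.19 in tendon and −0.16 in muscle, as a description across genes that share their libraries. For Mmp8 in the fat pad, the authors' deposited table gives a log2 fold change of 4.86, close to the 4.87 from counts. For Timp1 in muscle the authors' deposited table gives −0.78, opposite to the 1.36 from counts. For Mmp9 in tendon the authors' deposited table gives −7.21, where the counts were 58 and 41. Counts were therefore used throughout, and which table carries the intended libraries cannot be told from the sources used here.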

How the data were processed

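RNA was measured by sequencing in 6 libraries, 2 per tissue. The authors deposited for each tissue a table of raw read counts, whole numbers keyed by Ensembl ID, and 1 of TPM per library with their log2 fold change of library 1 over library 2, per the file headers. Bowtie2, RSEM 1.3.1, DESeq2 1.4.5 and GRCm39 are named in the submitters' processing notes without roles; the strand setting is not given in the sources used here. The 16964 genes in all 3 count tables were fitted with edgeR 4.0.16 in R 4.3.3 (TMM scaling, filterByExpr, 1 term per tissue, quasi-likelihood test, Benjamini-Hochberg over 15856 genes, threshold 0.05; biological coefficient of variation 0.336). CPM are TMM-scaled, and SE is the log2 fold change over the root of F. Alternatives were DESeq2 1.42.0, limma 3.58.1 on log2(TPM + 1), other scalings and filters, a replicate block and each library left out. The edgeR, DESeq2 and limma fits were tested on simulated data.

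Exon lengths and overlaps came from GENCODE M21 on GRCm38 and gene order from RefSeq, used for no coordinates of the counts. Members that averaged 20 CPM or more in some tissue are given in every library, others where called in at least 2 comparisons or above 5 CPM in a library. Members, lists and tests were chosen with earlier results of these data known. Intervals are exact conditional binomial at 95%. Whether the numbers 1 and 2 pair libraries across tissues is not stated. The correlations of same-numbered deviations were −0.027, 0.002 and −0.167, a check that cannot exclude pairing. Per-sample columns not used numbered 0.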

Additional observations from a re-analysis of the deposited data

Results flagged for a closer look

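In the authors' TPM table, library 2 of the Achilles tendon gives Mmp13 at 295 TPM, Mmp9 at 265 TPM and Mmp8 at 11.6 TPM, where its counts were 12, 41 and 3. Library 1 has 1.27, 1.51 and 0.413 TPM for the same genes, with 0, 58 and 0 counts. They stand out because TPM served in no main comparison and these proteases are near absent from the tendon by counts. In the same TPM column the 5 osteoblast markers sum to 2269 TPM, against 113 in library 1, the 5 osteoclast markers to 1197 against 320.0, and the 6 neutrophil markers to 462 against 10.2, while by counts the neutrophil sum was 1.02 CPM in library 2 and 0.812 in library 1. The part of these cell types in the values was not tested.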

How the results depend on the processing

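Of 66 member calls, 28 held under all 15 alternatives, 12 of 22 for fat pad over muscle, 16 of 26 for fat pad over tendon and none of 18 for tendon over muscle. None of the last held without either muscle library, and 12 of 18 held under every alternative with both. Mmp9 alone reversed, on TPM, to −1.65 (fat pad over tendon) and 0.74 (tendon over muscle). Leaving out 1 library gave 14 to 22 calls for fat pad over muscle (8 to 12 higher, 6 to 10 lower), 21 to 26 for fat pad over tendon (4 to 10 higher, 16 to 22 lower) and 0 to 20 for tendon over muscle (0 to 19 higher, 0 to 1 lower). Total-count scaling gave 31 calls for tendon over muscle, 30 of them higher. On TPM 7 were higher in fat pad than in muscle, 2 higher in fat pad than in tendon and 0 lower in tendon than in muscle (25 members at an unadjusted p under 0.05 in either direction; edgeR and DESeq2 each called 1 lower). DESeq2 gave 10 higher in fat pad than in tendon. The cause of these changes was not tested. With the replicate block the counts were 22, 27 and 16, and the tendon over muscle calls of Adamts7 and Adamts9 were lost. Total-count scaling put the mean MMP sums at 431.5, 923 and 233 CPM in fat pad, tendon and muscle, the ADAMTS sums at 247.5, 706.5 and 201, the TIMP sums at 1717, 2236 and 429, and the ADAMTS-like sums of tendon and muscle at 215 and 94.5. By TPM, Mmp2 ranked 4 in fat pad and 3 in tendon. Depth limits the rarest members: Mmp7 was too low to test, and 3 counts equal 0.0267 to 0.0735 TMM-scaled CPM a library.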
